A study of Homo sapiens with 12 samples.

Results

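Coronins and the coactosin-like protein COTL1 are proteins that bind actin filaments. The 8 genes described here are CORO1A, CORO1B, CORO1C, CORO2A, CORO2B, CORO6, CORO7 and COTL1, taken by name from a table of 57169 genes. The set was chosen by gene family and selected on measured values, since COTL1 was called higher and CORO2A lower in knock-down, by adjusted p and fold change, in an earlier analysis of these same libraries. The comparison of knock-down with control therefore describes these genes and is no independent test of them.

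Coronins carry WD40 repeats that fold into a β-propeller, and most end in a coiled coil. They sit on actin filaments, where they act together with the Arp2/3 complex, which nucleates filament branches, and with cofilin, which takes filaments apart. COTL1 is no coronin. It belongs to the family of proteins with the actin-depolymerising factor homology (ADF-H) domain, binds filamentous actin and also binds 5-lipoxygenase, an enzyme of leukotriene synthesis.

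The samples were 6 libraries from tumours with knock-down of RING1B and 6 from control tumours. All tumours were grown as xenografts from SK-ES1 cells, a long-established line of Ewing sarcoma. RING1B is the product of RNF2 and adds ubiquitin to histone H2A within Polycomb repressive complex 1. The labels call the controls wild-type. They name no host species or host age, and no construct for silencing or for the controls. They do not say whether the libraries came from separate tumours or animals, so the statistics measure the spread between these libraries, which may be in part technical. The titles carry 8 numbers, 4 of them on 2 libraries each, and the labels do not say what a number marks.

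Total counts ranged from 23859184 to 26678325 per library. An earlier analysis found control 6, knockdown 4 and knockdown 5 least like the other libraries, so results that rest on them are also given without them. RNF2 lay between 12.4 and 23.4 counts per 1000000 (CPM) in knock-down libraries, against 37.5 to 57.9 CPM in control libraries. Of 12 Ewing sarcoma markers, 11 passed the filter on low counts, and their summed level was 3222 to 3766 CPM in knock-down and 2884 to 3254 CPM in control. This sum is weighted to genes of high level. Among them FCGRT was at 896 ± 110 CPM in knock-down and 651 ± 132 CPM in control (SD, n = 6 each, edgeR adjusted p = 0.187). NR0B1 and EWSR1 were fitted lower in knock-down and the other markers tested higher. The 1 marker called was NPY1R, higher in knock-down and with no overlap between the groups. It was at 73.3 ± 13.1 CPM in knock-down and 41.3 ± 5.54 CPM in control (SD, n = 6 each, edgeR adjusted p = 0.0151). CD99, the surface protein used to diagnose this tumour, was listed at 0 in every library. Its name stands for 2 annotated loci.

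The letters just before the annotated start of the genes that chose this set are shown because the knock-down lowers the RNA of a Polycomb protein and Ewing sarcoma cells carry EWSR1-FLI1. Polycomb complexes are known to occupy promoters rich in CG dinucleotides, and the ETS factor FLI1 recognises the core GGAA. The RefSeq promoters (GRCh38.p14) run from 250 bases before to 50 bases after the start, and capitals mark GGAA or its reverse complement TTCC. That of COTL1 is chr16:84618029-84618328 on the minus strand, and that of CORO2A is chr9:98192588-98192887 on the minus strand.
COTL1: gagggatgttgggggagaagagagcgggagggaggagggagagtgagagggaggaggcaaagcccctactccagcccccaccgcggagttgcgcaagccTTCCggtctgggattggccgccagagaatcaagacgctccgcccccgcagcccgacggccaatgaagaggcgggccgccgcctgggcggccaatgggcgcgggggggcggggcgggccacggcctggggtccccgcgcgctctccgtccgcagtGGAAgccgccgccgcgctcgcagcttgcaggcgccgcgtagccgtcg
CORO2A: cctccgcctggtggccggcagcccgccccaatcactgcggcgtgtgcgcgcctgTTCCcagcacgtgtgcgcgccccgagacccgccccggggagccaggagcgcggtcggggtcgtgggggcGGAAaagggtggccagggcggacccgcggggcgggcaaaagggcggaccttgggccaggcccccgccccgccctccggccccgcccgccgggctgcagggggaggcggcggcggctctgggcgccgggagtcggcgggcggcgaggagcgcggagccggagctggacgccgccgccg
COTL1 held 35 CG dinucleotides in this window and CORO2A 45. Over 35116 promoters of the same length the median was 14, with quartiles of 4 and 28, so both were rich in CG. Of the 16 promoters listed for the 8 genes, several per gene for CORO1C, CORO2B, CORO6 and CORO7, the CG count ran from 3 to 45. Richness in CG did not set COTL1 apart from the other members. The highest count per gene was 39 for CORO7, 37 for CORO1C and 36 for CORO1B. It was 33 for CORO2B and CORO6 and 26 for CORO1A. Each of the printed windows held GGAA 2 times, counting both strands and overlaps, where the median of all promoters was 3. GGAA was present in 15 of the 16 windows, as in 95.5% of all promoters. The direct repeat GGAAGGAA was in none of the 16, and in 3.67% of all promoters. These counts are of letters only.

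COTL1 was higher in knock-down. On hg38 it occupies chromosome 16 from 84565594 to 84618077 (minus strand), and no exon of another gene shares its 6762 exon bases. Its level was lowest at 13.3, median 19.7 and highest at 29.4 CPM in knock-down, against 5.24, 8.45 and 10.9 CPM in control. All 6 knock-down libraries lay above every control library, with the highest value in knockdown 4 and the lowest in knockdown 3 and knockdown 1. The means were 19.8 ± 6.15 CPM in knock-down and 8.61 ± 2.07 CPM in control (SD, n = 6 each). The fitted difference was 2.29-fold, with a 95% interval of 1.66 to 3.16 (log2 fold change 1.20, SE 0.217, edgeR adjusted p = 0.0292, quoted as the value that chose the gene). The processed copies COTL1P1 and COTL1P2 had no count in any library.

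CORO2A was lower in knock-down. This coronin was found with the NCoR corepressor complex and has been tied to turnover of focal adhesions. It occupies chromosome 9 from 98120975 to 98192640 (minus strand), and its 5717 exon bases are shared with no other gene. Its level was lowest at 3.05, median 4.03 and highest at 5.43 CPM in knock-down, against 7.28, 8.49 and 10.7 CPM in control. All 6 knock-down libraries lay below every control library. The means were 4.15 ± 0.862 CPM in knock-down and 8.75 ± 1.27 CPM in control (SD, n = 6 each). The fitted level in knock-down was 47.5% of that in control, with a 95% interval of 37.0% to 60.9% (log2 fold change −1.07, SE 0.168, edgeR adjusted p = 0.0147, quoted as the value that chose the gene). These values rest on 72 to 149 counts per knock-down library and 187 to 268 per control library. In bulk RNA, fewer cells of a type and less RNA per cell cannot be told apart.

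**Figure D1:**
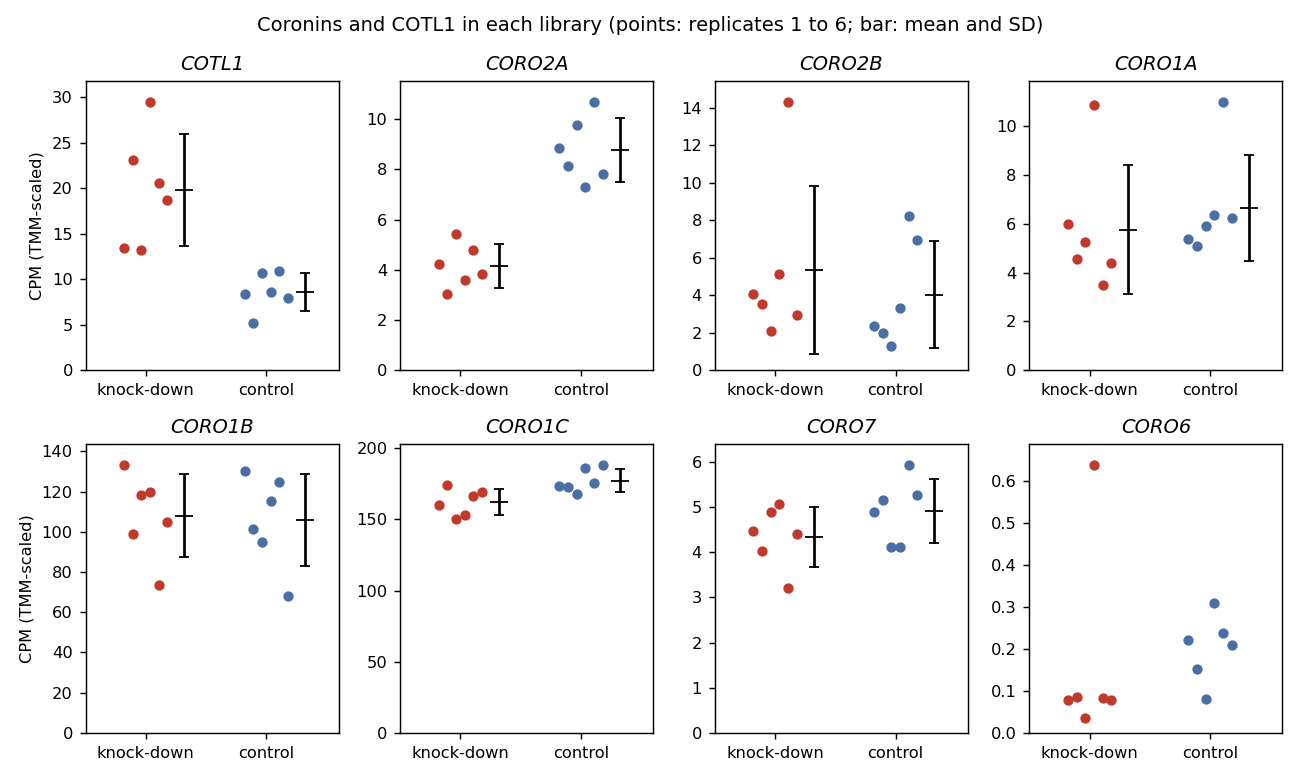
Each panel shows 1 gene, with level in TMM-scaled CPM on the vertical axis from 0 and 1 point per library for RING1B knock-down (left) and control (right). Bars are the mean and SD of 6 libraries and are left out for CORO6, whose counts are near 0. COTL1 at 13.3 to 29.4 CPM in knock-down and CORO2A at 3.05 to 5.43 CPM in knock-down do not overlap with their controls, while the other 6 genes do.

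Of the 8 genes, 7 passed the filter on low counts and CORO6 did not. COTL1 was called higher and CORO2A lower, at an edgeR adjusted p below 0.05, and the other 5 were not called. Over all 16519 genes tested, 0.176% were called higher and 0.121% lower, 0.297% together, and in 1.22% the groups did not overlap, as they did not in 2 of the 7. Since this contrast chose the genes, nothing is read from these shares. The called member nearest the threshold was COTL1, at 0.0292, and the nearest outside it was CORO1C, at an edgeR adjusted p of 0.519. The median log2 fold change of the 7 was −0.13, beside 0.01 for all genes tested, with 3 positive and 4 negative.

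The calls of COTL1 and CORO2A depended on which libraries were used. That of COTL1 was lost without control 1, 2, 3 or 4 or without knockdown 2, with edgeR adjusted p values from 0.0599 to 0.0814, and that of CORO2A without control 3 alone (edgeR adjusted p = 0.0501). Without control 6, knockdown 4 and knockdown 5, the log2 fold change was 0.96 for COTL1, no longer called (edgeR adjusted p = 0.0662), and −1.11 for CORO2A, still called (edgeR adjusted p = 0.0203). With libraries of the same title number summed, neither was called (edgeR adjusted p = 0.0663 for COTL1 and 0.0564 for CORO2A). With title number as a random effect both were called (limma-voom adjusted p = 0.0220 for COTL1 and 0.00548 for CORO2A). In that fit the correlation of libraries sharing a number was −0.12. Titles also carry a letter, D or E, whose meaning the labels do not give. Among D libraries, 4 knock-down and 2 control, the log2 fold change was 1.04 for COTL1 and −0.90 for CORO2A. Among E libraries, 2 knock-down and 4 control, it was 1.46 for COTL1 and −1.30 for CORO2A, and neither gene was called within a letter. Both genes kept their sign in all 26 alternative settings and were also called by DESeq2, which called 2.12% of all genes, and by limma-voom, which called 0.339%. These settings reuse the counts that chose both genes, so they are no independent support.

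Among the type I coronins, CORO1C, which is widely expressed and takes part in cell migration, was the most even. It lies on chromosome 12 from 108645109 to 108731596 (minus strand). Its level was lowest at 151, median 163 and highest at 174 CPM in knock-down, against 168, 174 and 188 CPM in control. The groups overlapped, although 4 of the 6 knock-down libraries lay below every control library. The means were 162 ± 9.14 CPM in knock-down and 177 ± 8.05 CPM in control (SD, n = 6 each), and the log2 fold change was −0.13 with a 95% interval of −0.29 to 0.04, the narrowest of the 7.

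CORO1B, which lies at the leading edge of moving cells, recruits the cofilin phosphatase slingshot and opposes Arp2/3 branching, did not differ detectably. It lies on chromosome 11 from 67435510 to 67443821 (minus strand). Levels were lowest at 73.7, median 112 and highest at 133 CPM in knock-down, against 68.3, 108 and 130.4 CPM in control. The lowest libraries, knockdown 5 and control 6, stood below the others of their groups. The log2 fold change was 0.03 with a 95% interval of −0.32 to 0.38, and its sign turned in several alternative settings. PTPRCAP, a leukocyte gene on the same strand, shares 24.3% of the exon bases of CORO1B and had no count in any library. How reads in shared bases were assigned is not given in the sources used here.

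CORO1A is the coronin of leukocytes, known for its part in T cell survival. It lies on chromosome 16 from 30182827 to 30189076 (plus strand), and the antisense gene AC012645.3, with at most 2 counts per library, overlaps 11.1% of its exon bases. Its level was lowest at 3.51, median 4.91 and highest at 10.9 CPM in knock-down, against 5.08, 6.07 and 11.0 CPM in control. In both groups 1 library stood above the rest, knockdown 4 and control 5, and the others ran from 3.51 up to 6.35 CPM. Knock-down over control gave a log2 fold change of −0.21 with a 95% interval of −0.78 to 0.37, and the gene was not called. This value depended on the libraries, at −0.02 without control 5, −0.098 without knockdown 5, −0.48 without knockdown 4, −0.42 without control 6, knockdown 4 and knockdown 5, and 0.11 among E libraries.

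By the mean of their log2 levels, markers of leukocytes were highest in those same libraries, but their summed level was not. Of 20 markers 11 passed the filter, and their mean was 2.72 log2 CPM in knockdown 4 and 2.68 in control 5, with 1.41 to 2.37 in the other knock-down libraries and 1.54 to 2.19 in the other controls. The summed level of the 20 was 737 to 1090 CPM in knock-down and 630.1 to 1101 CPM in control, most of it from ITGB2 and LCP1. This sum was highest in knockdown 3 and in control 1, while knockdown 4 had 744 CPM and control 5 had 824 CPM. Without ITGB2 and LCP1 it was 14.8 to 44.2 CPM in knock-down and 12.3 to 34.6 CPM in control, highest in knockdown 4 and control 5. CD3E was at 0 in every library, and C1QA had 1 count and C1QC 2 counts over all libraries. PTPRC, the pan-leukocyte CD45, lay between 0.677 and 1.22 CPM in knock-down and between 0.455 and 2.23 CPM in control. LYZ reached more, at 1.75 to 15.3 CPM in knock-down and 1.67 to 9.98 CPM in control. AIF1 was at 1.93 to 10.8 CPM in knock-down and 0.948 to 7.62 CPM in control. CD79A was at 3.47 to 6.52 CPM in knock-down and 2.83 to 4.93 CPM in control. Of the 11 markers, CSF1R, CD74 and LCP1 were fitted lower in knock-down and the rest higher. None was called, and the smallest edgeR adjusted p was 0.419, for CD79A. COTL1 and CORO7 were also highest in knockdown 4 among knock-down libraries and in control 5 among controls, and CORO2A was highest in control 5. With the marker mean as a covariate the log2 fold change was 1.13 for COTL1, −1.07 for CORO2A and −0.35 for CORO1A. Without both libraries, a setting added after the data were seen, it was 1.11 for COTL1, −0.98 for CORO2A and −0.29 for CORO1A, with COTL1 and CORO2A still called (edgeR adjusted p = 0.0447 for each). After removal of group means, the Pearson correlation with the marker mean was 0.84 for CORO1A, 0.46 for COTL1 and −0.19 for CORO2A (n = 12). Without both libraries these correlations were 0.57, 0.041 and −0.50 in the same order (n = 10). This contrast chose COTL1 and CORO2A, and whether leukocyte content bears on them was not tested.

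**Figure D2:**
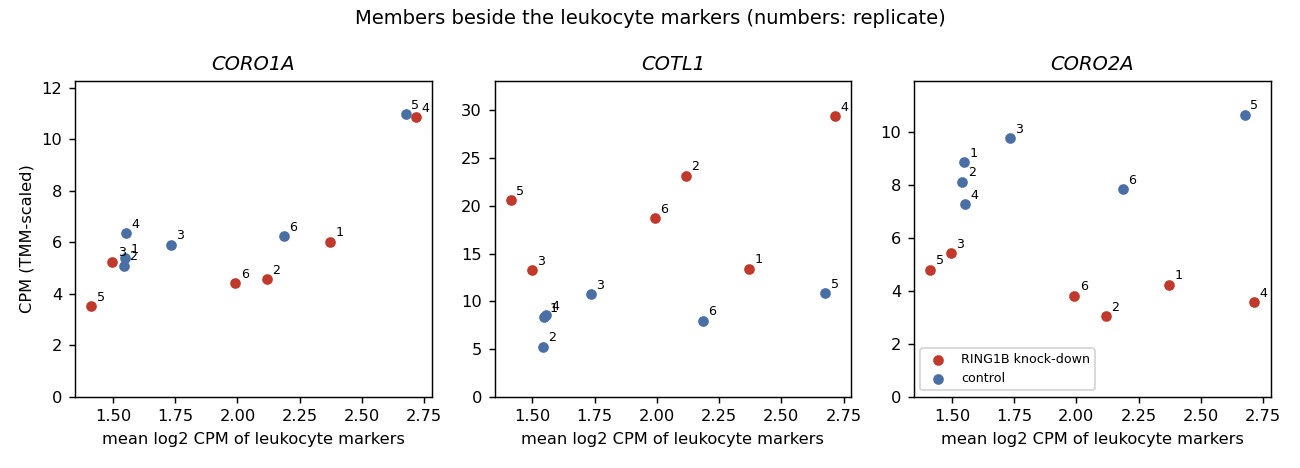
Level in CPM (vertical axis, from 0) of CORO1A, COTL1 and CORO2A is set against the mean log2 CPM of 11 leukocyte markers (horizontal axis), with 1 numbered point per library for RING1B knock-down and control. CORO1A reaches 10.9 CPM in knockdown 4 and 11.0 CPM in control 5 at the right end. COTL1 and CORO2A were chosen by this contrast, so their groups would lie apart on any horizontal axis.

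CORO2B, the type II coronin first described in neurons, varied most from library to library among the 7. It lies on chromosome 15 from 68578969 to 68727806 (plus strand). Its level was lowest at 2.11, median 3.79 and highest at 14.3 CPM in knock-down, against 1.32, 2.83 and 8.23 CPM in control. Knockdown 5 held the highest value and stood far above the other knock-down libraries, the next of which was at 5.11 CPM. The span from the lowest to the highest library was 6.76-fold in knock-down and 6.26-fold in control, where for CORO1C it was 1.16-fold in knock-down and 1.12-fold in control. The log2 fold change was 0.41 with a 95% interval of −0.66 to 1.48, and −0.18 without knockdown 5 alone. Without knockdown 4, knockdown 5 and control 6 it was −0.13. The other type II coronin, CORO2A, had spans of 1.78-fold in knock-down and 1.46-fold in control.

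CORO7 carries β-propellers in tandem and no coiled coil, and works at the Golgi apparatus. It lies on chromosome 16 from 4354542 to 4425705 (minus strand). Its level was lowest at 3.22, median 4.44 and highest at 5.07 CPM in knock-down, against 4.10, 5.03 and 5.93 CPM in control. The groups overlapped, and the log2 fold change was −0.18 with a 95% interval of −0.52 to 0.17. The readthrough gene CORO7-PAM16 shares 37.5% of its exon bases and had at most 3 counts in any library.

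CORO6, known in mouse muscle for its part in clustering acetylcholine receptors, was near the limit of detection. It lies on chromosome 17 from 29614756 to 29622907 (minus strand). Counts were 1 to 15 in knock-down and 2 to 8 in control, where 3 counts correspond to 0.112 to 0.126 CPM. In knock-down 5 of the 6 libraries had at most 2 counts, and knockdown 4 had 15. No fold change is given. The 16 skeletal muscle markers summed to 27.8 to 57.8 CPM in knock-down and 30.2 to 58.4 CPM in control, and knockdown 4 was the highest of its group. RYR1, the calcium release channel of muscle, was the marker called, at 22.8 ± 8.06 CPM in knock-down and 11.0 ± 1.92 CPM in control (SD, n = 6 each, edgeR adjusted p = 0.0425). Without RYR1 the other 15 summed to 10.7 to 34.7 CPM in knock-down and 17.7 to 50.7 CPM in control, and knockdown 4, at 20.4 CPM, was the second highest of its group.

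**Figure D3:**
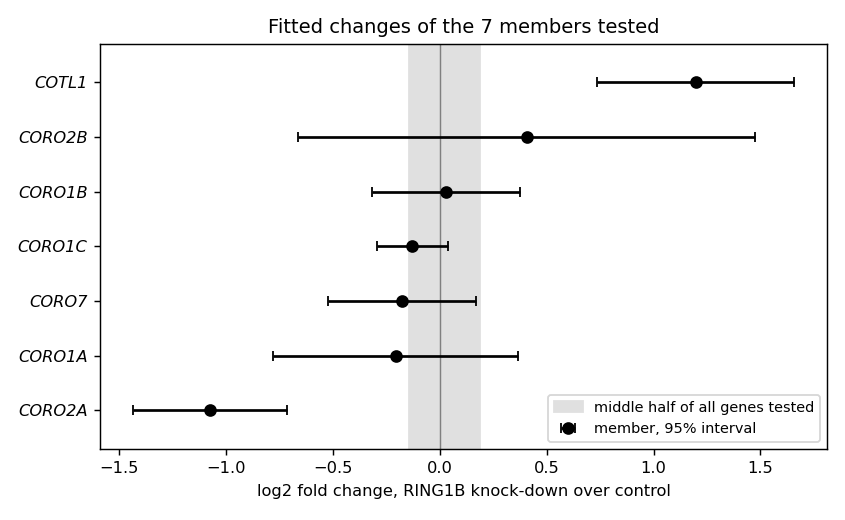
Points are fitted log2 fold changes of RING1B knock-down over control for the 7 genes tested, with bars for the 95% interval, and the shaded band runs from the lower to the upper quartile of all genes tested, −0.14 to 0.19. COTL1 at 1.20 and CORO2A at −1.07 lie on opposite sides, and the intervals of the other 5 genes include 0.

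Levels of different genes were compared per length, as transcripts per 1000000 (TPM) computed from the deposited exon lengths. TPM values are not TMM-scaled, so libraries can rank otherwise in TPM than in CPM. For CORO1C, control 6 was the highest control library at 188 CPM and the lowest at 70.3 TPM. CORO1C and CORO1B stood far above the rest, at 78.8 ± 7.40 and 65.3 ± 16.7 TPM in knock-down, against 88.9 ± 10.3 and 66.4 ± 19.0 TPM in control (SD, n = 6 each). The ranges of this pair overlapped, with CORO1C above CORO1B in 5 of 6 knock-down libraries and in 6 of 6 control libraries. COTL1 had 9.13 ± 2.37 TPM in knock-down and 4.18 ± 1.14 TPM in control, and CORO2A had 2.32 ± 0.610 TPM in knock-down and 5.04 ± 1.01 TPM in control (SD, n = 6 each). These follow the directions given above in CPM. CORO1A had 3.76 ± 1.63 TPM in knock-down and 4.47 ± 1.53 TPM in control. CORO2B had 4.02 ± 2.93 TPM in knock-down and 3.15 ± 2.08 TPM in control. CORO7 had 1.58 ± 0.344 TPM in knock-down and 1.83 ± 0.305 TPM in control (SD, n = 6 each). In control the ranges of neighbours from CORO2A through CORO1A, COTL1 and CORO2B to CORO7 overlapped, so their order there is not firm. In knock-down COTL1 stood above CORO1A and CORO2A in 6 of 6 libraries and above CORO2B in 5 of 6. CORO6 was below all others in every library, at 0.0299 to 0.444 TPM in knock-down and 0.0628 to 0.253 TPM in control.

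With the whole count divided by only the exon bases that no other gene shares, an alternative chosen after the data were seen that holds only if no read in shared bases was counted, CORO1B came to 86.2 ± 22.1 TPM in knock-down and 87.7 ± 25.1 TPM in control (SD, n = 6 each). It then stood beside CORO1C. CORO7 came to 2.53 ± 0.549 TPM in knock-down and 2.92 ± 0.487 TPM in control (SD, n = 6 each). By either length COTL1 and CORO2A keep the same values, since they share no exon bases.

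**Figure D4:**
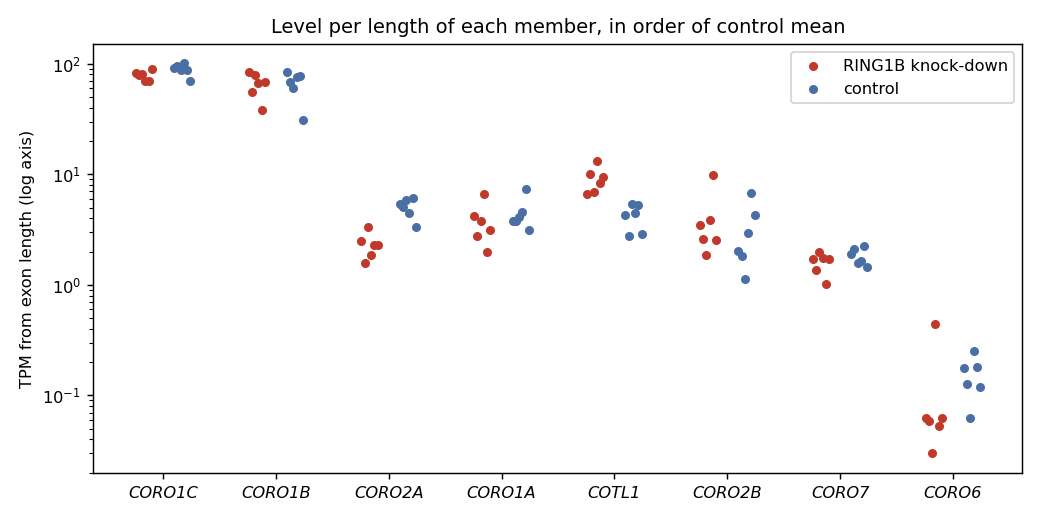
Level per length in TPM on a log axis for each gene, ordered by control mean, with 1 point per library and RING1B knock-down left of control. CORO1C and CORO1B lie between 31.3 and 101 TPM, the others below 13.1 TPM, and CORO6 below 0.444 TPM.

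Together CORO1B and CORO1C made up 92.2 ± 2.61% of the summed coronin level per length in knock-down and 91.3 ± 2.15% in control (SD, n = 6 each). The sum of the 7 coronins was 156 ± 20.7 TPM in knock-down and 170.0 ± 29.8 TPM in control, with ranges of 123 to 179 TPM in knock-down and 114 to 191 TPM in control that overlap. CORO2A was 1.49 ± 0.348% of that sum in knock-down and 2.98 ± 0.425% in control. COTL1 equalled 3.74% to 8.56% of the coronin sum in knock-down and 1.58% to 3.35% in control. Since this contrast chose COTL1 and CORO2A, nothing is read from the difference of these shares between the groups.

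Within groups, the level of RNF2 did not track COTL1 or CORO2A detectably. With 6 libraries per group, and RNF2 spanning 1.88-fold in knock-down and 1.54-fold in control, these correlations cannot show that a relation is absent. Over the 6 knock-down libraries the correlation of log2 CPM with RNF2 was r = −0.16 for COTL1 (exact permutation p = 0.740, Spearman coefficient 0.029, exact permutation p = 1) and r = −0.21 for CORO2A (exact permutation p = 0.664, Spearman coefficient −0.086, exact permutation p = 0.919). Over the 6 control libraries it was r = 0.26 for COTL1 (exact permutation p = 0.665, Spearman coefficient −0.20, exact permutation p = 0.714) and r = −0.44 for CORO2A (exact permutation p = 0.371, Spearman coefficient −0.49, exact permutation p = 0.356). Adjusted over these 4 relations, every Pearson p was 0.740 and every Spearman p was 1, two-sided. Without the 2 libraries farthest from the median of RNF2, r was −0.40 in knock-down and 0.061 in control for COTL1, and 0.25 in knock-down and −0.25 in control for CORO2A.

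The genes most like COTL1 and CORO2A were taken by the Pearson correlation of log2 CPM over 12 libraries after removal of each group's mean. They were sought among 14225 genes with a mean of at least 1 CPM. For COTL1 these were TPPP3 at 0.87, EGLN3 at 0.84, DLX1 at 0.83, CCDC77 at 0.81 and CPNE4 at 0.81. For CORO2A they were CHD5 at 0.93, NOP2 and PRSS16 at 0.85 each, and PDCD1 and TMEM184A at 0.83 each. None of the 10 was called in the comparison of knock-down with control by edgeR. Since only 0.297% of all genes were called, nothing is read from this count. Their log2 fold changes ran from −1.28 for TMEM184A and −1.08 for CHD5 up to 0.44 for EGLN3 (edgeR adjusted p from 0.165 to 0.969 over the 10). The highest of so many correlations over 12 libraries is large by selection, and these values are a description.

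In 10 lists of actin regulators and partners, 157 genes outside the coronin set were tested, with 80 positive and 77 negative log2 fold changes and a median of 0.01, beside 0.01 over all genes. By edgeR none was called, where 0.297% of all genes were, and 23, or 14.6%, reached an unadjusted p under 0.05, as did 12.7% of all genes. Both counts are near these backgrounds. Calls numbered 0 with limma-voom, which called 0.339% of all genes, and 3 with DESeq2, which called 2.12%, and those 3 were SPIRE2, EPS8L2 and PAK2.

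The Arp2/3 complex, with which coronins bind branches, had 7 of 11 genes positive, and the median of its log2 fold changes was 0.12. Its smallest adjusted p values belonged to ACTR3C, ACTR3, ARPC1A and ARPC1B, at 0.45, 0.24, 0.28 and 0.22 on the log2 scale (edgeR adjusted p from 0.464 to 0.549). Among activators and inhibitors of Arp2/3, 10 of 27 were positive with a median of −0.06. CYFIP1, a WAVE complex subunit, was at 133 ± 19.1 CPM in knock-down and 158 ± 17.6 CPM in control (SD, n = 6 each, edgeR adjusted p = 0.367), and cortactin, CTTN, which coronin displaces from branches, had a log2 fold change of −0.19.

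Genes of cofilin and filament disassembly split evenly, 8 of 16 positive (median 0.01). TESK2, a kinase that inactivates cofilin, had a log2 fold change of 0.67 and CAP2, an actin monomer recycler, one of 0.79 (edgeR adjusted p = 0.279 and 0.281). The other ADF-H domain genes, relatives of COTL1, had 4 of 5 positive and a median of 0.06, with DBNL at −0.29, TWF1 at 0.33, DBN1 at 0.08 and TWF2 at 0.06 (edgeR adjusted p from 0.381 to 0.930). Of the actins 4 of 6 were positive (median 0.03), and ACTB, the main cytoplasmic actin, was at 2151 ± 194 CPM in knock-down and 2109 ± 163 CPM in control (SD, n = 6 each, edgeR adjusted p = 0.925).

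Profilins, thymosins, formins and Ena/VASP genes were positive in 14 of 22 (median 0.09). SPIRE2, an actin nucleator, was at 4.54 ± 1.93 CPM in knock-down and 2.12 ± 0.384 CPM in control, with no overlap between the groups (SD, n = 6 each, edgeR adjusted p = 0.0844). Capping and severing genes were positive in 8 of 20 (median −0.05), with EPS8L2 at −0.81 and TMOD2, a tropomodulin, at 1.26 (edgeR adjusted p = 0.144 and 0.201). Crosslinkers, bundlers and tropomyosins were positive in 14 of 27 (median 0.02). Their smallest adjusted p values belonged to PALLD at −0.40, PLS3 at −0.28, EZR at −0.21 and TAGLN2 at 0.38 (edgeR adjusted p from 0.231 to 0.336).

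The NCoR and SMRT corepressor complex, in which CORO2A was found, had 2 of 6 genes positive and a median of −0.14. TBL1X was at 30.8 ± 4.33 CPM in knock-down and 38.9 ± 3.35 CPM in control (SD, n = 6 each, edgeR adjusted p = 0.226). HDAC3 and NCOR1 were at −0.14 each on the log2 scale and TBL1XR1 at −0.15 (edgeR adjusted p from 0.590 to 0.667).

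**Figure D5:**
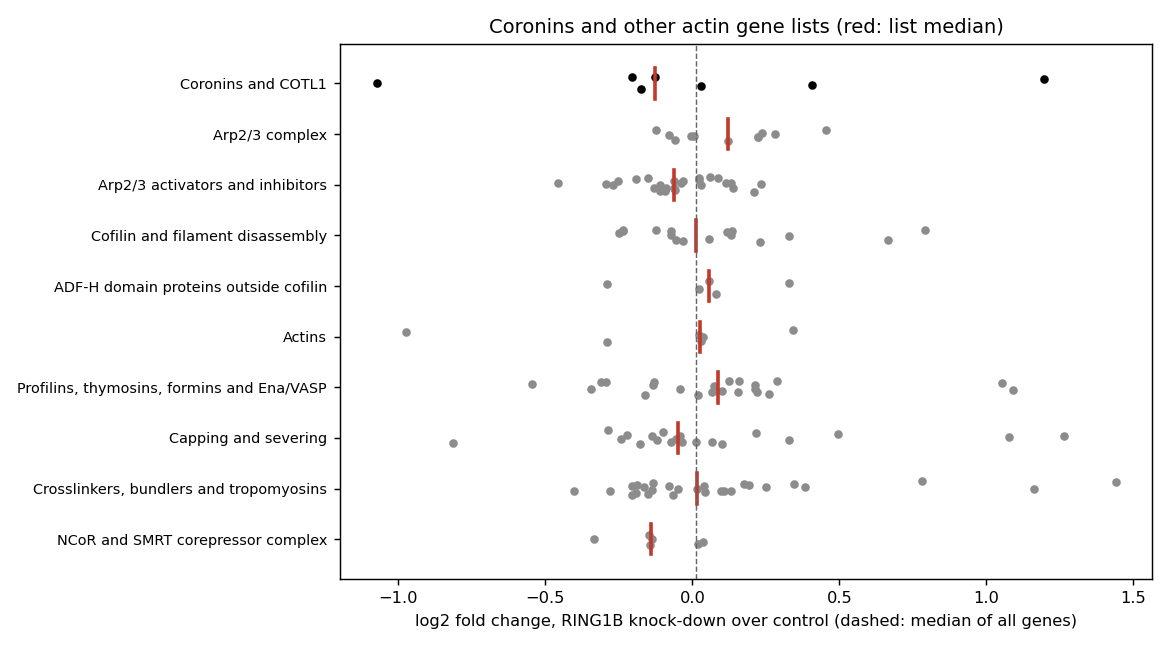
Each point is the log2 fold change of RING1B knock-down over control of 1 gene, with the 7 coronin and COTL1 genes in the top row and 9 lists of actin regulators and partners below. Red bars are list medians, from −0.14 to 0.12, and the dashed line is the median of all genes, 0.01. COTL1 at 1.20 and CORO2A at −1.07 lie apart from the other members in the top row.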

How the data were processed

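Per the labels' protocols, extraction used RNeasy and library preparation the TruSeq stranded mRNA chemistry. The authors deposited raw read counts per gene without normalisation, and a column of exon length per gene. The submitters' processing notes name FastQC, STAR 2.6.0a, hg38, featureCounts, limma 3.40.2 and R 3.6.0. How the counter was set for strand and for shared bases, and whether host reads were removed, is not given in the sources used here. Exons of all 57169 genes matched GENCODE release 29.

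In R 4.3.3, edgeR 4.0.16 (filterByExpr, TMM, robust quasi-likelihood F test, no covariate) compared 6 knock-down with 6 control libraries over 16519 genes, and calls required a p of under 0.05 after Benjamini-Hochberg adjustment. The fit was tested on simulated data in which all libraries were independent. That test does not cover libraries that share a title number or stand apart from their group. Factors lay between 0.921 and 1.04. CPM values are TMM-scaled, log2 CPM has a prior count of 2, and a standard error is the log2 fold change divided by the root of F. Alternatives used DESeq2 1.42.0, limma-voom 3.58.1, other scalings and filters, covariates and left-out libraries. Samples were grouped by the genotype label and numbered in accession order. Titles carry 8 numbers, 4 of them on 2 libraries each and none in both groups.

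The genes and lists were chosen with earlier results of these data known. Named are mainly RNF2, the 8 genes, up to 4 genes per list with the smallest adjusted p, genes that share exons with a member and the 5 genes most like COTL1 and CORO2A. Some further cell markers and the processed copies of COTL1 are named besides. Lists held 10 groups of actin genes and 3 of cell markers, and all names were found in the table. The result of 1 actin list is not reported here. Proteins were not analysed here.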

Additional observations from a re-analysis of the deposited data

Results flagged for a closer look

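In 18 groups of 6 libraries, those of the 8 genes and RNF2 in knock-down and in control, 4 held a library whose gap to its nearest neighbour was large against the range of the group (above Dixon's 95% critical value). Chance flags about 1 in 20 groups.

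CORO1A was at 10.9 CPM in knockdown 4 and at 11.0 CPM in control 5, each the highest of its group. The leukocyte marker mean also peaked there, at 2.72 log2 CPM in knockdown 4 and 2.68 in control 5. CORO2B was at 14.3 CPM in knockdown 5. CORO6 was at 0.639 CPM in knockdown 4, from 15 counts.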

How the results depend on the processing

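The number of genes called by edgeR, 49, was 351 by DESeq2, 91 by limma-voom with title number as a random effect, 108 without control 6, knockdown 4 and knockdown 5, 28 with title letter as a covariate, 7 with counts summed by title number, 6 among D libraries and 0 among E libraries (903 at an unadjusted p below 0.05), and 16 to 79 without 1 library. The 0 calls in the actin lists became 3 by DESeq2, 1 with total counts (PAK2) and 1 without those 3 libraries (EPS8L2), and stayed 0 without any 1 library (13 to 35 at an unadjusted p below 0.05). The cause was not tested.

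The values that follow are log2 fold changes of knock-down over control. COTL1 was not called with counts summed by title number (1.11), without those 3 libraries (0.96), among D libraries (1.04) or among E libraries (1.46), where fewer samples entered, and ranged from 1.05 to 1.28 without 1 library. CORO2A was not called with summed counts (−1.13), among D (−0.90) or E libraries (−1.30), and ranged from −1.18 to −0.9995. CORO1B, at 0.03, was −0.23 among D libraries, −0.0034 with the letter as a covariate and −0.068 to 0.12 without 1 library. CORO2B, at 0.41, was −0.20 among E libraries, −0.13 without those 3 libraries and −0.18 to 0.73 without 1 library. CORO1A, at −0.21, was 0.11 among E libraries and −0.48 to −0.02 without 1 library. Without 1 library CORO1C ran from −0.15 to −0.11 and CORO7 from −0.23 to −0.10, and both kept their sign in all 26 settings (CORO1C −0.16 to −0.10). No paired analysis was possible because no title number occurs in both groups. CORO6, with 1 to 15 counts per library, is limited by depth.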
